A study of Homo sapiens with 25 samples.

Results

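The genes described here are the semaphorins, a family of guidance ligands, and their receptors, the plexins and neuropilins, in hiF-T cells. Members were all protein-coding genes whose symbols belong to semaphorin classes 3 to 7, to plexins A to D, or to the neuropilins NRP1 and NRP2. This gave 31 genes (20 semaphorins, 9 plexins and 2 neuropilins) of the 58302 genes in the files, of which 19817 were protein-coding. RNA sequencing of polyadenylated RNA had been done on 25 libraries of hiF-T, an established line of fibroblast-like cells that came from BJ skin fibroblasts and carries inducible hTERT, the catalytic subunit of telomerase. The genotype label is WT in every library, hTERT is shared by treated and control cells alike, and the labels give no clone or passage. In the sort set, 5 groups of 4 biological replicates were either left ungated or taken from the low, midlow, midhigh or high gate of an accumulation dye, a sort that the series design describes as one by proliferation status. In the drug set there were 5 libraries: DMSO replicate 1, DOT1L inhibition replicate 1, LSD1 inhibition replicate 1, no drug replicate 2 and LSD1 inhibition replicate 2. The labels name no compound, dose, exposure time or dye value, and leave unsaid whether slowly dividing cells are those with much or with little dye. Nothing in them says that the replicates came from separate thaws or clones, so p-values measure the spread between these libraries.

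Semaphorins are secreted or membrane-bound proteins that share the Sema domain, and they were first known for repelling growing axons. They bind plexins, large single-pass receptors whose cytoplasmic part acts on small GTPases and so loosens actin and integrin adhesion. Most secreted class 3 semaphorins also need a neuropilin as a co-receptor, and neuropilins bind VEGF as well. In fibroblasts and other connective tissue cells the family is known for effects on migration, spreading and matrix contact.

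Ligand and receptor genes of every class were measured, at very unequal levels. Levels can be compared between genes only per length, so counts were divided by the union of each gene's exons and scaled to a sum of 1000000 per library (TPM). The most abundant member was SEMA7A, a semaphorin held to the membrane by a lipid anchor, with a median of 325 TPM over the 20 sort libraries (lowest 241, highest 423). NRP1, the co-receptor of several class 3 semaphorins, followed at 290 TPM (186 to 387), so the ranges of the top 2 genes overlapped. By the longest transcript in place of the exon union, the order of these 2 genes turned, with 422 TPM for NRP1 and 271 TPM for SEMA7A. PLXNB2, a broadly expressed B plexin, had a median of 167 TPM, and the secreted ligand SEMA3C one of 116 TPM. PLXNA1 and PLXND1 came next among the plexins at 66.7 and 62.9 TPM. Plexin C1, the plexin that binds semaphorin 7A, was the least abundant plexin: PLXNC1 had a median of 0.527 TPM against the 325 TPM of SEMA7A. NRP2, the neuropilin that binds semaphorin 3F, stood at 18.3 TPM.

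**Figure D1:**
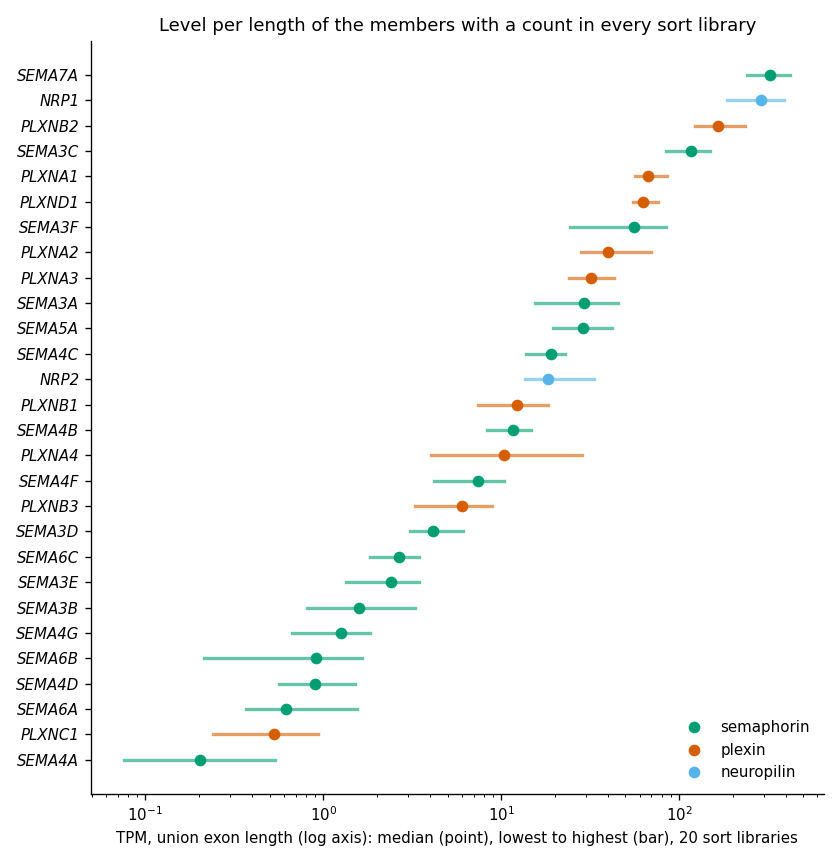
Level per length of each member with at least 1 count in every one of the 20 sort libraries, on a log axis of TPM; points are medians, bars run from the lowest to the highest library, and colours mark ligands, plexins and neuropilins. SEMA7A (median 325 TPM) and NRP1 (290 TPM) stand at the top, and PLXNC1 (0.527 TPM) is the lowest plexin.

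A filter on low counts kept 27 of the 31 members in the sort, trend and LSD1 comparisons. The 4 members that failed it were all semaphorins. SEMA3G had 7 counts and SEMA5B 3 counts in all 25 libraries together, SEMA6D had 76, and SEMA4A had 138. Counts below describe the 27 members that passed.

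Gene counts ran from 15015039 to 20030093 per library, so that 3 counts, the limit that a count of 0 allows, equal 0.150 to 0.200 CPM (counts per 1000000 gene counts); such limits cover counting error only. Fibroblast markers were present, with 11 or 12 of 12 at 1 CPM or more in each group (FN1 at 10600 to 19500 CPM), though THY1 stayed at 0.0593 to 1.72 CPM. Of the markers of other cell types, SOX10 had 0 counts and CDH5, KRT5, LYZ and SNAP25 stayed at or under 0.300 CPM. Other genes of the same lists passed 1 CPM in their highest library. Among them were NEFL (7.86 CPM), GAP43 (6.20 CPM) and TUBB3 (3.01 CPM) of the neuronal list. ROBO4 (4.30 CPM), EGFL7 (3.42 CPM), EPCAM (2.96 CPM), CSF1R (1.95 CPM) and PMEL (1.84 CPM) came from the other lists. The smooth muscle and pericyte genes ACTA2 (5.58 to 121 CPM), RGS5 (4.43 to 234 CPM) and CNN1 (5.86 to 32.7 CPM), the endothelial gene TEK (36.5 to 101 CPM) and the neuronal gene SYT1 (21.8 to 46.3 CPM) were expressed in every library. Ungated replicate 3 stood apart from its own gates for several members, among them NRP1 (816 CPM against 509.8 to 539.8 CPM). In bulk RNA, fewer cells that express a gene and less RNA per cell cannot be told apart.

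The comparison of high with low dye asks which members differ between cells from the ends of the dye range. Plexins of the A and B classes and 3 low-abundance ligands were higher in high dye cells, and 1 A plexin was lower. Of 27 members, 8 were called by edgeR's quasi-likelihood test (Benjamini-Hochberg adjusted p under 0.05), 7 higher and 1 lower. This is 29.6% of the members, where 17.7% of all 14592 genes tested were called (9.39% higher and 8.35% lower). By role, 5 of 9 plexins (55.6%), 3 of 16 semaphorins (18.8%) and 0 of 2 neuropilins were called. The share of the semaphorins thus lay near the 17.7% of all genes. The median log2 fold change of the members was 0.15, beside 0.01 over all genes tested. The replicate numbers pair the sort libraries, and with the replicate number as a block 13 members were called (10 higher, 3 lower), or 48.1%, where 37.2% of all genes were called (19.8% higher and 17.4% lower). High and low dye did not overlap for 7 of 27 members (25.9%), beside 19.0% of all genes. Without high dye replicate 3 only 4 members were called, PLXNA3, PLXNB2, PLXNB3 and SEMA3E, and these 4 were called in each of 9 fits that left out 1 library.

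**Figure D2:**
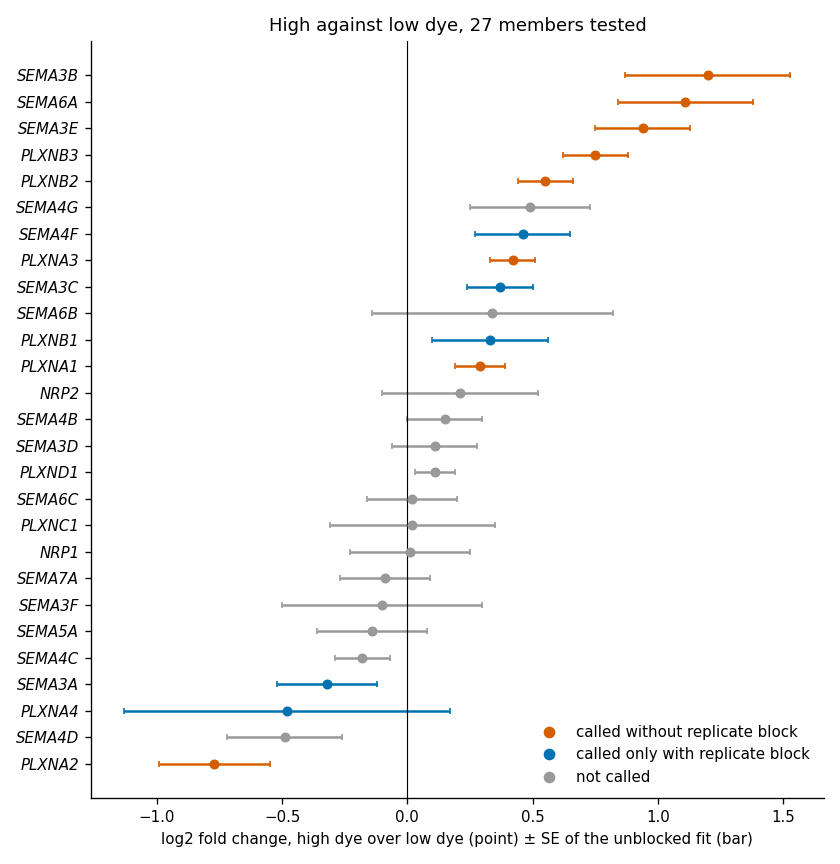
Log2 fold change of high over low dye for the 27 members tested (points) with the standard error of the fit without the replicate block (bars); orange marks members called without the block, blue those called only with it, and grey the rest. SEMA3B lies farthest to the right (1.20) and PLXNA2 farthest to the left (-0.77).

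Of the 4 A plexins 3 were called, and they did not move one way. A plexins are the signalling receptors that class 3 semaphorins reach through neuropilins. PLXNA3, on chromosome X, was at 82.5, 78.6, 66.9 and 75.9 CPM in low dye replicates 1 to 4 and at 106, 91.7, 110.1 and 97.7 CPM in high dye replicates 1 to 4. Every high dye library lay above every low dye library, and the step fell between the inner gates, since midlow dye ran from 68.9 to 84.7 CPM and midhigh dye from 99.3 to 113 CPM. The log2 fold change was 0.42 ± 0.09 (SE), a 1.33-fold difference, with an adjusted p of 0.00370 by edgeR. PLXNA1 had 164, 137, 173 and 149 CPM in low dye and 206, 172, 217 and 171 CPM in high dye. These ranges overlapped, yet the high dye library was the higher one under each of the 4 replicate numbers. Its log2 fold change was 0.29 ± 0.10 (adjusted p = 0.0450 by edgeR, 0.000276 with the block). Without the block that call was lost when high dye replicate 1 or 3, low dye replicate 1, 2 or 4, or ungated replicate 3 was left out (adjusted p 0.0516 to 0.170).

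PLXNA2, a receptor of semaphorin 6A as well as of class 3 ligands, went the other way. It stood at 231, 144, 199 and 152 CPM in low dye and at 122, 101, 96.5 and 107 CPM in high dye. No library of one gate reached into the other, and the level stepped down through the gates, from a mean of 181 CPM in low to 161 in midlow, 131 in midhigh and 107 in high dye. The log2 fold change was -0.77 ± 0.22 (adjusted p = 0.0209 by edgeR). The call was lost without low dye replicate 1 (adjusted p = 0.0702), low dye replicate 3 (0.0535) or high dye replicate 3 (0.0714), and it held with the block (6.7e-05). PLXNA4, the fourth A plexin, was called lower only with the block (-0.37 ± 0.14, adjusted p = 0.0370).

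The promoters of PLXNA3, which rose, and PLXNA2, which fell, are shown to compare their sequence. Each line gives the 250 bases before the RefSeq start (GRCh38.p14), 5′ to 3′ on the gene's strand, with GGGCGG or its complement CCGCCC, the GC box bound by SP1-type factors, in capitals. PLXNA3 is read from chrX:154458031-154458280 on the plus strand and PLXNA2 from chr1:208244385-208244634 on the minus strand.
PLXNA3: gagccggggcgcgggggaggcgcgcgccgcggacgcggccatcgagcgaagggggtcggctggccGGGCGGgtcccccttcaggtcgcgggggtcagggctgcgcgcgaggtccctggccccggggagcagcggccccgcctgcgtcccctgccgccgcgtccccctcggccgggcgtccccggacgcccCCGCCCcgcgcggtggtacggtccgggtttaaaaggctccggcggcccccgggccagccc
PLXNA2: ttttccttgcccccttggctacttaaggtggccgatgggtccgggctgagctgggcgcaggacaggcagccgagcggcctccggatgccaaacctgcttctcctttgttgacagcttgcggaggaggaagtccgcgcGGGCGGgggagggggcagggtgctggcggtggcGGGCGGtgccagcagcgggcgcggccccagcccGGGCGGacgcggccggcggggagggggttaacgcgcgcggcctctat
Both windows are rich in G and C (82.8% and 72.4%) and both hold GC boxes, 2 in PLXNA3 and 3 in PLXNA2. The motif was present in the gene that rose and in the one that fell.

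All 3 B plexins lay higher in high dye, and 2 of them were called without the block. Plexins B1 and B2 bind class 4 semaphorins. PLXNB2 had 249.5, 199, 253 and 235 CPM in low dye and 391, 284, 391 and 309 CPM in high dye. Its lowest high dye library exceeded its highest low dye library, and the log2 fold change was 0.55 ± 0.11 (adjusted p = 0.00241 by edgeR). PLXNB3, the least abundant B plexin, stood at 8.02, 7.03, 5.45 and 6.62 CPM in low dye and at 13.2, 9.92, 11.5 and 11.2 CPM in high dye. It gave the smallest adjusted p of any member in this comparison, 0.00144 by edgeR at a log2 fold change of 0.75 ± 0.13. PLXNB3 shares 20.4% of its exon length with SRPK3 on the same strand, so its count is less certain than that of PLXNB2. SRPK3 itself had only 185 counts in all 25 libraries together, against 4401 for PLXNB3. PLXNB1, the receptor of semaphorin 4D, had 30.7, 27.4, 24.9 and 18.3 CPM in low dye and 41.3, 30.2, 32.4 and 23.7 CPM in high dye. The replicates differed more than the gates, and it was called only with the block (0.34 ± 0.07, adjusted p = 0.000871). PLXND1, the receptor that semaphorin 3E binds without a neuropilin, was called in neither fit (0.11 ± 0.08, adjusted p = 0.342 by edgeR), and neither was PLXNC1 (0.02 ± 0.33, 0.977).

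Among the ligands, the 3 that rose were scarce transcripts. SEMA3B, a secreted semaphorin studied as a candidate tumour suppressor, had 1.50, 1.07, 1.60 and 1.16 CPM in low dye and 2.86, 3.50, 4.08 and 1.84 CPM in high dye. All 4 high dye libraries lay above the low dye libraries, with replicate 4 nearest to them. Its log2 fold change of 1.20 ± 0.33 was the largest of any member (adjusted p = 0.0177 by edgeR). Without the block this call was lost when low dye replicate 2 (adjusted p = 0.0515) or high dye replicate 3 (0.0728) was left out, and it held with the block. SEMA6A, a transmembrane ligand of plexins A2 and A4, stood at 1.19, 1.38, 0.961 and 1.23 CPM in low dye and at 2.57, 2.53, 3.54 and 1.67 CPM in high dye. The groups did not overlap, and the log2 fold change was 1.11 ± 0.27 (adjusted p = 0.0100 by edgeR, 0.0512 without high dye replicate 3). The call of SEMA6A held with the block. SEMA6A shares a small part of its exons with antisense genes (SEMA6A-AS1, 2.45%), and the kit keeps no strand.

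SEMA3E, the ligand of plexin D1, was also called. It was at 2.88, 2.60, 2.69 and 4.29 CPM in low dye and at 6.72, 5.01, 6.67 and 5.46 CPM in high dye. Low dye replicate 4 was the highest of its group but stayed under every high dye library. The log2 fold change was 0.94 ± 0.19, a 1.91-fold difference (adjusted p = 0.00308 by edgeR). Its promoter is shown because, unlike the plexin windows printed above, it holds no GC box; the 250 bases before the RefSeq start come from chr7:83649140-83649389 on the minus strand, and capitals mark the E-box CACGTG.
SEMA3E: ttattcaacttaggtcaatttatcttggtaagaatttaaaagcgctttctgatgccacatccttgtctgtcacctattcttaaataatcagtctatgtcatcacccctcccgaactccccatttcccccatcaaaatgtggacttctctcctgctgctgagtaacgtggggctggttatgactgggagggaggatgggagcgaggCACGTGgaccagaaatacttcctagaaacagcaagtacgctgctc
With 46.4% G and C this window is poorer in these bases than the median of the members, 66.4%.

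**Figure D3:**
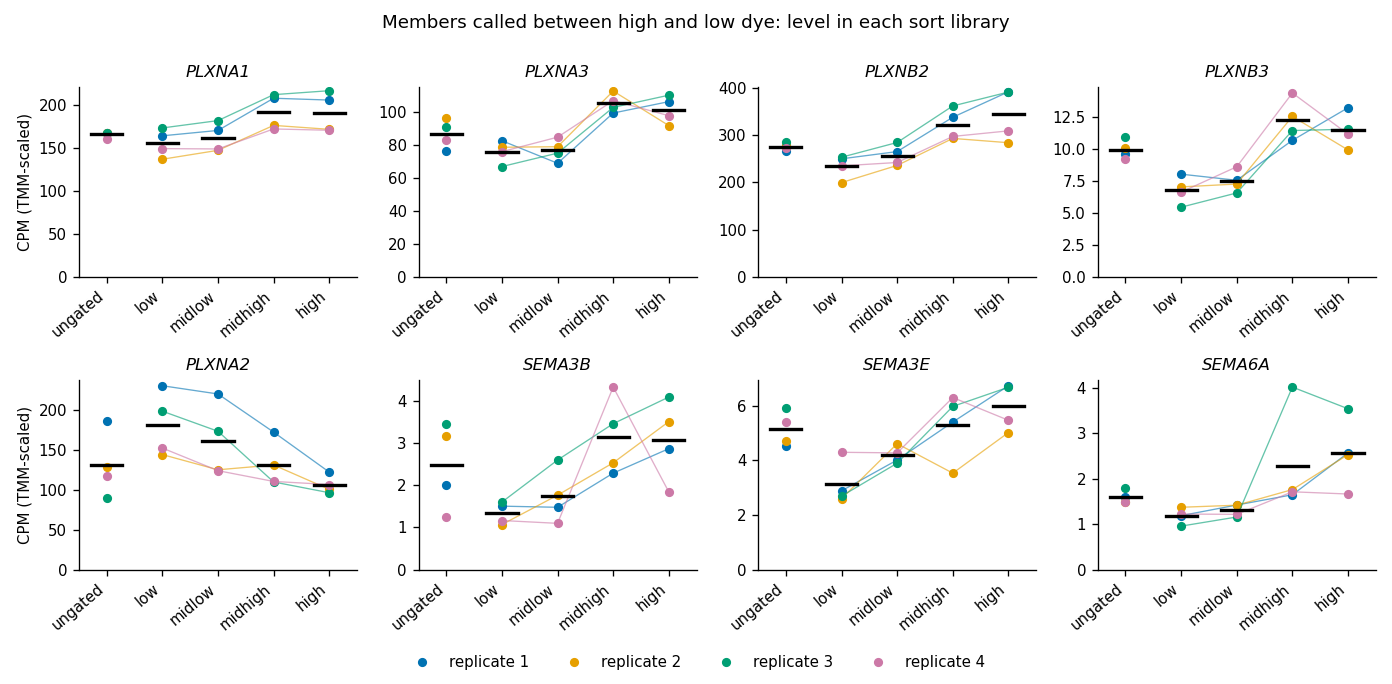
CPM (TMM-scaled, linear axes from 0) of the 8 members called between high and low dye in each of the 20 sort libraries; colours mark replicate numbers, lines join the gates of 1 number and black bars are group means. In 7 panels the means are higher in high than in low dye, and in PLXNA2 they go down, from a mean of 181 CPM in low dye to 107 CPM in high dye.

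Of the abundant ligands, SEMA3C, a class 3 semaphorin that acts through both neuropilins, was called with the block, by DESeq2 and in the fits without low dye replicate 1 or high dye replicate 4. It had 168, 118, 145 and 152 CPM in low dye and 217, 175, 204 and 156 CPM in high dye. The high dye library was the higher one under each of the 4 numbers, and the log2 fold change was 0.37 ± 0.13 (adjusted p = 0.0608 by edgeR, 0.000420 with the block and 0.0458 by DESeq2). SEMA4F, a transmembrane class 4 ligand, stood at 8.53, 5.81, 9.42 and 10.4 CPM in low dye and 12.04, 8.84, 10.9 and 15.2 CPM in high dye. It too was higher under all 4 numbers and was called with the block or when high dye replicate 2 was left out (0.47 ± 0.12, adjusted p = 0.00389). SEMA3A, the founding repellent of the class and a ligand of NRP1, ran from 67.0, 82.4, 63.4 and 59.8 CPM in low dye to 33.4, 70.9, 54.9 and 59.6 CPM in high dye. It was the lower one in high dye under all 4 numbers, most so under number 1, and it was called only with the block (-0.35 ± 0.13, adjusted p = 0.0439). The class 3 genes SEMA3A, SEMA3C, SEMA3D and SEMA3E all lie on chromosome 7, yet they did not move together: SEMA3E rose, SEMA3A fell with the block, SEMA3C rose with it, and SEMA3D gave 0.11 ± 0.17 (adjusted p = 0.693 by edgeR). The remaining members, 14 that neither fit called, had log2 fold changes from -0.49 to 0.49.

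Marker genes moved along the same axis. The summed level of 6 proliferation markers was 822.8 to 1659 CPM in high dye and 1747 to 2104 CPM in low dye, 4 of the 6 were called lower, and none was at 0. The summed level of 12 fibroblast markers was 21940 to 29970 CPM in high dye and 17720 to 19550 CPM in low dye, with 4 of 12 called higher and 0 lower without the block, 7 higher and 3 lower with it, and none at 0. For 5 smooth muscle and pericyte markers the sums were 37.2 to 191.7 CPM and 17.5 to 71.1 CPM, 0 of the 4 tested were called without the block and 3 were higher with it, and DES stayed at or under 0.120 CPM. The part of these shifts in the members' results was not tested.

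The levels of 6 members, the top 2 by level per length among them, differed mostly between replicate numbers. In the 16 gated libraries, the sum of squares of log2 CPM was split between gate, replicate number and rest. SEMA3F, the secreted ligand of NRP2, had 98.2% of it between replicate numbers and 0.277% between gates. Its geometric means over the gates were 29.6, 57.2, 66.9 and 87.2 CPM for numbers 1 to 4, and number 1 was the lowest and number 4 the highest in every gate. NRP1 had 97.9% between numbers, with geometric means of 830.0, 948, 523 and 613 CPM. Numbers 1 and 2 lay above numbers 3 and 4 in all gates. PLXNA4, a receptor of semaphorins 3A and 6A, had 95.5%, with geometric means of 46.0, 83.0, 21.0 and 17.5 CPM, and with the block it also fell along the gates (-0.13 ± 0.03 per gate, adjusted p = 0.0014). Shares over 80% were also found for NRP2 (90.2%), SEMA5A (89.5%) and SEMA7A (89.3%), which makes 6 of 27 members, while 6.8% of all 14419 genes passed that share. At the other end, PLXNB3 (83.8%) and PLXNA3 (83.0%) had most of their sum of squares between gates. Gate shares over 50% were found for 7 of 27 members and 19.8% of all genes.

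The block took up most of the spread of these genes and gave smaller standard errors. NRP1 gave 771, 992, 509.8 and 614 CPM in low dye and 861, 919, 512 and 618 CPM in high dye, a log2 fold change of 0.01 ± 0.24 (adjusted p = 0.983 by edgeR). With the block the change stayed near 0 (0.01 ± 0.09, adjusted p = 0.919). NRP2 had 89.8, 54.0, 44.9 and 53.7 CPM in low dye and 104, 78.1, 54.3 and 44.4 CPM in high dye (0.19 ± 0.09 with the block, adjusted p = 0.0953). Neither neuropilin was called in a sort comparison, with or without the block. SEMA7A had 338, 358, 218 and 257 CPM in low dye and 292, 308, 226 and 273 CPM in high dye (-0.07 ± 0.07 with the block, adjusted p = 0.473). SEMA3F gave -0.09 ± 0.06 with the block (adjusted p = 0.280), and it lies near SEMA3B on chromosome 3 (positions 50155045 to 50189075 and 50267558 to 50277546 in GRCh38). The 2 neighbours thus differed in what their levels followed, as SEMA3B had 65.4% of its sum of squares between gates and 13.4% between replicate numbers. SEMA5A, a transmembrane ligand with thrombospondin repeats, gave -0.13 ± 0.08 with the block (adjusted p = 0.220).

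**Figure D4:**
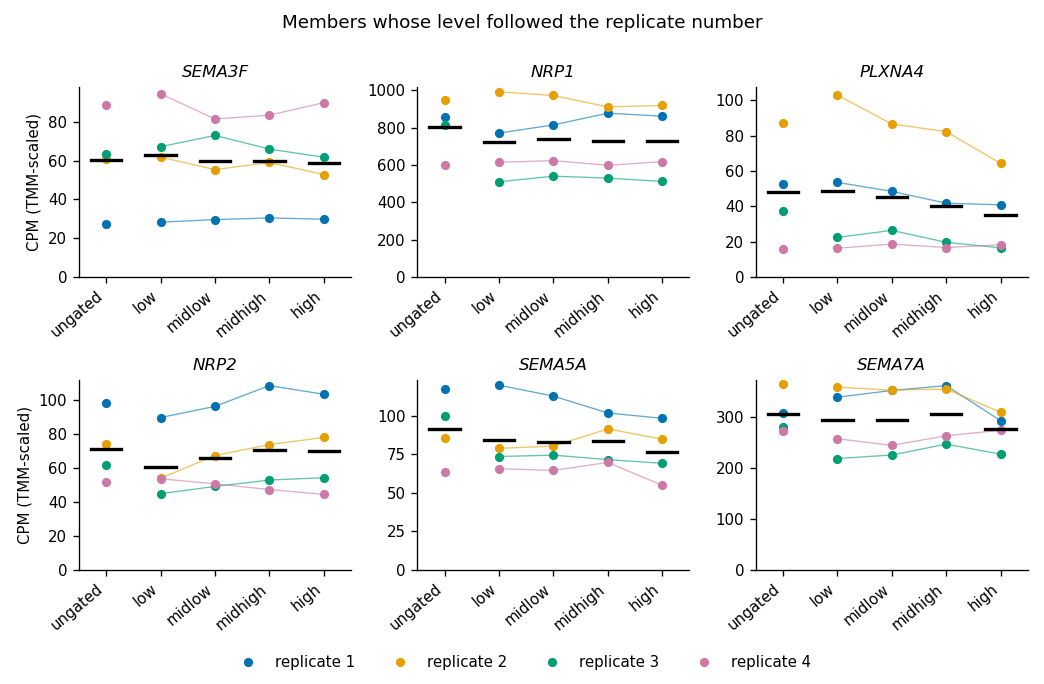
CPM (TMM-scaled, linear axes from 0) of the 6 members with over 80% of their sum of squares between replicate numbers, in each sort library; colours mark replicate numbers, lines join the gates of 1 number and black bars are group means. In SEMA3F the lines run flat at 4 heights, with geometric means from 29.6 CPM (number 1) to 87.2 CPM (number 4).

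A straight-line trend over low, midlow, midhigh and high dye, in assumed equal steps, called 9 of 27 members (33.3%), beside 26.2% of 14419 genes (14.0% higher and 12.3% lower). Of these, 8 rose and PLXNA2 fell. The steepest slopes per gate were those of SEMA3B (0.45 ± 0.10), SEMA6A (0.41 ± 0.09), SEMA3E (0.31 ± 0.06) and PLXNB3 (0.30 ± 0.05), and PLXNA2 had -0.26 ± 0.06. SEMA3C, not called by edgeR without the block between the outer gates, was called here (0.12 ± 0.04, adjusted p = 0.0228 by edgeR). Its call and that of PLXNA1 were each lost without high dye replicate 1, high dye replicate 3 or low dye replicate 2 (adjusted p 0.0501 to 0.0729). With the block, 17 members were called (12 higher, 5 lower; 63.0%), beside 43.8% of all genes (23.1% higher and 20.7% lower), and 8 of the 9 plexins were among them. The members that the block added were PLXNA4, PLXNB1, PLXND1, SEMA3A, SEMA4C, SEMA4D, SEMA4F and SEMA4G.

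SEMA4C, SEMA4D and SEMA4G, called here with the block but not between the outer gates, belong to class 4. These transmembrane semaphorins include ligands of plexins B1 and B2. SEMA4D, the ligand of plexin B1, had 5.08, 2.65, 3.20 and 4.29 CPM in low dye and 3.16, 3.02, 2.10 and 2.53 CPM in high dye, and its slope with the block was -0.17 ± 0.06 (adjusted p = 0.0273). SEMA4C, a ligand of plexin B2, had 32.6, 28.6, 27.6 and 25.7 CPM in low dye and 26.4, 27.2, 24.6 and 22.8 CPM in high dye (-0.06 ± 0.02, adjusted p = 0.0419). SEMA4D and SEMA4C thus fell along the gates with the block, while the plexins they bind, B1 and B2, rose. The class 4 ligands SEMA4F and SEMA4G rose with the block as well, so the class did not move one way. SEMA4G had 1.38, 1.53, 0.833 and 1.16 CPM in low dye and 1.34, 2.21, 1.68 and 1.67 CPM in high dye (0.18 ± 0.07, adjusted p = 0.0441). It shares 22.3% of its exon length with MRPL43 on the opposite strand, which had 15488 counts against 686 for SEMA4G, so reads of the 2 genes cannot be told apart there. PLXND1 had 135, 125, 155 and 133 CPM in low dye and 149, 147, 155 and 140.1 CPM in high dye (0.05 ± 0.02, adjusted p = 0.0440).

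Between the inner gates, midhigh and midlow, edgeR called 0 of 27 members and 0.0% of 14592 genes in either direction, although 6 members and 1891 genes had an unadjusted p under 0.05. DESeq2 called 122 genes and 2 members, PLXNA3 (adjusted p = 0.00300) and PLXNB3 (0.00300). PLXNB3 was at 7.55, 7.25, 6.56 and 8.60 CPM in midlow dye and at 10.7, 12.5, 11.4 and 14.4 CPM in midhigh dye. The groups did not overlap, and the log2 fold change of 0.71 ± 0.13 was close in size to that between the outer gates. PLXNA3 gave 0.46 ± 0.09 on the log2 scale. With the block 6 members were called, all higher in midhigh dye (22.2%, beside 10.8% of all genes and 5.52% higher): PLXNA1, PLXNA3, PLXNB1, PLXNB2, PLXNB3 and SEMA3B. Of these 6, 5 are A or B plexins.

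Against ungated cells few differences passed the test. These comparisons share the ungated libraries, so they are given side by side. For high dye, edgeR called 0 of 27 members and 0.00685% of all genes (4 members and 1543 genes at an unadjusted p under 0.05; 0 members and 19 genes by DESeq2), and for low dye 0 of 27 members and 0.0754% (9 members and 1898 genes; 2 members and 188 genes by DESeq2). With the block, 5 members were called in high dye (3 higher and 2 lower, beside 7.59% of all genes, 3.66% higher and 3.93% lower) and 6 in low dye (1 higher and 5 lower, beside 10.8%, 3.59% higher and 7.2% lower). In high dye PLXNA1 (0.19), PLXNB1 (0.30) and PLXNB2 (0.31) were higher than in ungated cells, and PLXNA4 (-0.46) and SEMA3A (-0.45) were lower, all as log2 fold changes. In low dye PLXNA2 (0.48) was higher, and PLXNB2 (-0.24), PLXNB3 (-0.55), SEMA3C (-0.36), SEMA3E (-0.72) and SEMA4F (-0.52) were lower. PLXNB2 alone was called on both sides, higher in high dye and lower in low dye.

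Genes that work with the family were read from 4 lists. Of 43 tested co-receptors and plexin effectors, 4 rose from low to high dye and 0 fell, with a median log2 fold change of -0.03. The 9.3% that rose lay at the 9.39% of all genes called higher. With the block 23.3% rose and 25.6% fell (10 and 11 genes), beside 19.8% and 17.4% of all genes. Among the risers is the small GTPase MRAS, a relative of R-Ras, which went from 5.94 to 16.7 CPM on average (1.50 ± 0.37, adjusted p = 0.0097 by edgeR). Among 6 tested VEGF ligands and receptors, which share the neuropilins, VEGFA alone was called without the block (0.92 ± 0.30, adjusted p = 0.0425 by edgeR). With the block 3 of the 6 rose and 1 fell, the VEGF relative PGF (-0.75 ± 0.12, adjusted p = 4.76e-05 by edgeR), which also fell in the trend without the block (-0.27 ± 0.10 per gate, 0.0421). Of 25 tested genes of other guidance families, 4 rose (16%) and 1 fell (4.0%), beside 9.39% and 8.35% of all genes, and with the block 8 rose (32.0%) and 3 fell (12%), beside 19.8% and 17.4%. The netrin receptor UNC5B was at 0.852 CPM in low and 12.7 CPM in high dye (3.90 ± 1.07, adjusted p = 0.0173 by edgeR), the ephrin receptor EPHA4 gave 1.16 ± 0.24 (0.00406), and the ephrin EFNB1 0.77 ± 0.17 (0.00477). Of 6 tested proteases that cut semaphorins, 1 rose and 0 fell, and with the block 3 rose and 1 fell, numbers too small to set against those shares.

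LSD1, a demethylase of histone H3, was inhibited in 2 libraries, set against the DMSO and no drug libraries as 1 control group. SEMA3B, SEMA3D, SEMA3E, SEMA4F, SEMA6B and PLXND1 were higher in both inhibited libraries than in both controls, and SEMA4D, SEMA6A and SEMA6C were lower. These genes make up 33.3% of the members, while 34.1% of all genes were likewise without overlap, so the members lay at that share. No member was called by edgeR without the block. EdgeR called 0 of 27 members and 0.114% of 14002 genes (6 members and 950 genes at an unadjusted p under 0.05), and DESeq2 called 122 genes and 1 member, SEMA3D (adjusted p = 0.00478). With the number as a block, 11 members were called, all higher (40.7%), beside 16% of all genes (9.1% higher and 6.91% lower). That the numbers pair these libraries is not established, since the 2 pairs give 1 free correlation (0.557). Number 1 has only DMSO as its control and number 2 only no drug. The block therefore cannot be told apart from the difference between these controls. The small adjusted p-values of the blocked fit given below rest on these 2 pairs only. Leaving out any 1 library left 1 sample in an arm, so the calls of such fits are not read here.

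SEMA3D, a secreted semaphorin, was at 11.5 CPM in DMSO, 11.9 in no drug, and 22.4 and 23.0 in the LSD1 inhibition libraries. Both controls were alike and both inhibited libraries lay far above them (0.97 ± 0.14 on the log2 scale, adjusted p = 0.104 by edgeR, 3.96e-16 with the block). Its log2 fold change was 0.93 to 1.00 when 1 library was left out. Those fits hold 1 sample in an arm, so their calls are not used. SEMA3B had 2.80, 3.17, 8.10 and 6.45 CPM in the same order (1.29 ± 0.23, adjusted p = 0.141 by edgeR, 3.74e-10 with the block). It is the member with the largest change in this comparison as well as between high and low dye. SEMA6B, a transmembrane ligand of plexin A4, had 1.24, 1.12, 2.51 and 2.50 CPM (1.09 ± 0.29, adjusted p = 0.358 by edgeR, 0.00327 with the block). SEMA3E had 6.34, 6.09, 8.42 and 8.39 CPM and SEMA4F 13.1, 12.9, 16.1 and 16.7 CPM (with the block adjusted p = 0.0291 and 0.0214). For these 5 ligands the inhibited libraries did not overlap the controls, a separation that 34.1% of all genes showed in either direction.

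Of the receptors, PLXND1 had 134 CPM in DMSO, 132 in no drug and 189.8 and 169 with LSD1 inhibition, again without overlap (0.44 ± 0.11, adjusted p = 0.313 by edgeR, 4.59e-11 with the block). In all, groups did not overlap for 9 of 27 members (6 higher, 3 lower; 33.3%), beside 34.1% of all genes, so the members' share lay at that of all genes. The 3 lower ones, called neither with nor without the block, were SEMA4D with 2.55 CPM in DMSO, 2.05 in no drug and 1.86 and 1.88 with LSD1 inhibition, SEMA6A with 1.74, 1.99, 1.41 and 1.69 CPM, and SEMA6C with 3.35, 4.35, 3.02 and 3.07 CPM in the same order. For the other 5 members called with the block, the treated and control libraries overlapped. NRP1, for example, had 866 CPM in DMSO and 646 in no drug, with 943 and 769.6 CPM in LSD1 inhibition replicates 1 and 2. The inhibited library was the higher one under each number, and the blocked change was 0.20 ± 0.05 (adjusted p = 0.00339). NRP2 (0.21 ± 0.07, adjusted p = 0.0212), PLXNA2 (0.36 ± 0.06, 3.37e-07), SEMA3A (0.32 ± 0.06, 2.11e-05) and SEMA3C (0.40 ± 0.06, 3.13e-10) had the same pattern. Proliferation markers summed to 976.6 and 1299 CPM with LSD1 inhibition and to 1500.0 and 1174 CPM in DMSO and no drug, and the smooth muscle and pericyte list to 239.7 and 382.1 against 127.9 and 238.1 CPM. With the block 6 of 6 proliferation markers were lower, and without it 0. The fibroblast markers summed to 25470 to 30610 CPM with LSD1 inhibition and to 21900 and 25180 CPM in DMSO and no drug, with 7 of 11 tested higher and 0 lower with the block and 0 called without it. Of the 4 smooth muscle and pericyte markers tested, 1 was higher without the block and 2 with it. The part of these lists in these values was not tested. Of the 4 lists of related genes no gene was called without the block. With it, 3 of the 6 VEGF genes tested rose and 0 fell. Of 43 co-receptors and effectors 3 rose (6.98%) and 6 fell (14%), with ITGA1 (-0.44 ± 0.08) and MRAS (-0.38 ± 0.12) among those that fell. Of 23 genes of other guidance families 4 rose and 4 fell (17.4% each), with NTN4 among the risers (0.43 ± 0.05, adjusted p = 2.63e-13 by edgeR). Of 6 proteases 1 rose and 1 fell. Among all genes 9.1% were higher and 6.91% lower.

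DOT1L, a methyltransferase of histone H3, was inhibited in 1 library, which was set against the DMSO library without a test, so that the ratios compare these libraries only. Of 27 members, 2 were at least 2-fold different, both higher (7.41%), where 5.35% of 14990 genes passed that fold (4.31% higher and 1.04% lower). SEMA3B stood at 11.8 CPM against 2.80 CPM in DMSO, a log2 ratio of 2.03, and SEMA6B at 2.98 against 1.24 CPM, a log2 ratio of 1.19. SEMA3E followed at 0.91 (12.1 against 6.34 CPM). The lowest ratios were those of NRP1 at -0.63 (560.4 against 866 CPM), PLXNA2 at -0.62 (52.8 against 80.9 CPM), and SEMA7A and SEMA5A at -0.52 each. The DMSO library also serves as the control of LSD1 inhibition replicate 1, whose ratios over it were 1.49 for SEMA3B, 0.95 for SEMA6B, 0.40 for SEMA3E, 0.12 for NRP1 and 0.48 for PLXNA2. The no drug library, at 646 CPM for NRP1 and 127 CPM for PLXNA2, differed from DMSO for both genes.

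**Figure D5:**
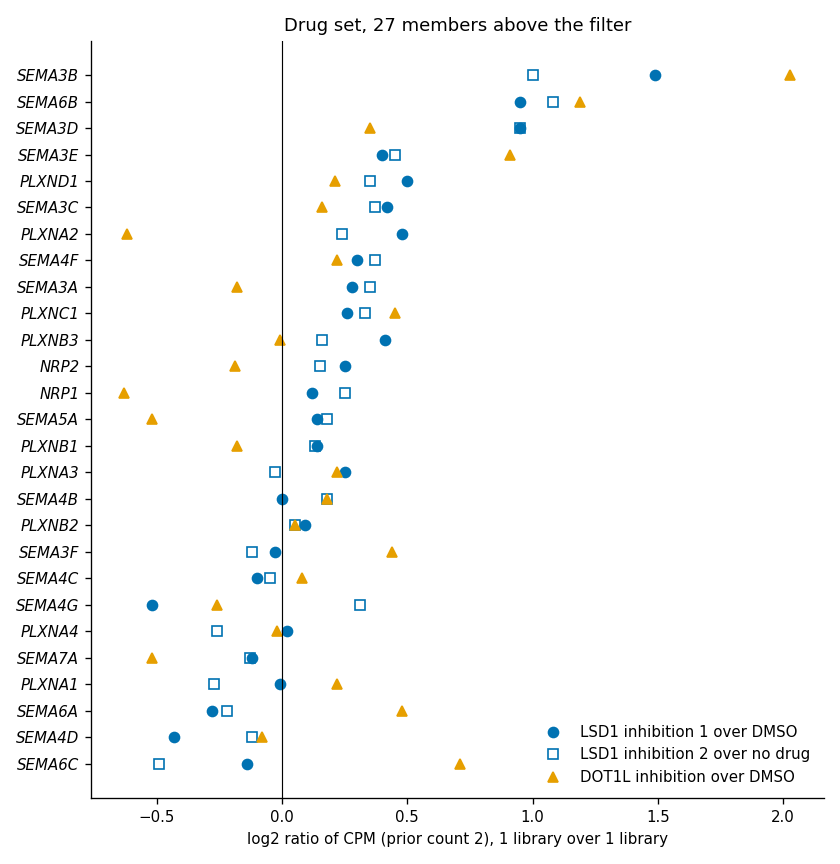
Log2 ratio of CPM (prior count 2) of 1 drug library over 1 control library for the 27 members, ordered by the mean of the LSD1 ratios; filled circles are LSD1 inhibition 1 over DMSO, open squares LSD1 inhibition 2 over no drug and triangles DOT1L inhibition over DMSO. SEMA3B, SEMA6B and SEMA3D lie at 0.95 or above in both LSD1 ratios, and SEMA3B reaches 2.03 with DOT1L inhibition.

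Promoter windows of the same length were in the RefSeq table for 27 of the 31 members (all but NRP1, SEMA3A, SEMA6A and SEMA6B). These include SEMA3G, SEMA4A, SEMA5B and SEMA6D, which failed the filter, so they are not the 27 members tested. GGGCGG, on either strand, was in 19 of these 27 (70.4%), against 42.6% of all 35116 RefSeq starts in the table, and their median G and C content was 66.4% against 58.0%. CACGTG was in 3 (SEMA3E, SEMA4D and SEMA6D; 11.1%), against 6.34% of all starts. The TATA box TATAAA was in 0 of the 27 windows, against 10.7% of all starts. The AP-1 site TGANTCA was likewise in 0, against 6.57%. Forms of the E2F site were in 0 as well, TTTGGCGC against 0.55% of all starts and, searched apart from it, TTTCCCGC against 1.39%. The cell cycle element TTTGAA was in 2 (7.41%, against 13.3%), and the p53 half-site, searched on both strands, was in SEMA3F and SEMA5B (7.41%, against 5.57%). These are matches of letters in 1 window per member and describe no binding. The table holds several starts for some genes, so the shares of members and of all starts come from unlike sets. The windows of PLXNA4, SEMA4B, PLXNB2 and PLXNA1 lie 72218, 24316, 5958 and 5479 bases from the gene's 5′ end in GENCODE.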

How the data were processed

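Each library's deposited file holds raw counts by Ensembl gene, which the authors had not normalised. STAR, HTSeq and hg38 (GRCh38) are named in the submitters' processing notes; versions, annotation release and strand setting are not given in the sources used here, and the kit (NEBNext Ultra II RNA, per the labels' protocols) does not keep the strand. HTSeq put 4.33% to 7.72% of reads in no feature and 7.14% to 7.62% among ambiguous ones, and these stayed out of library sizes. No library copied another of its group (smallest chi-square per degree of freedom 8.22).

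The main test was the quasi-likelihood test of edgeR 4.0.16 (R 4.3.3, TMM, filterByExpr with minimum count 10 and minimum total 15, Benjamini-Hochberg over all genes). The 20 sort libraries shared 1 fit, the 16 gated libraries the trend, and the drug set had its own. Standard errors are the absolute log2 fold change over the square root of F. CPM was TMM-scaled within the sort set and within the drug set, so levels are not comparable across the sets. TPM used exon lengths of GENCODE 29. DOT1L ratios used a prior count of 2 and variance shares a pseudocount of 0.1 CPM.

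Same-number sort libraries deviated together (all 40 pairs correlated above 0.1, from 0.146 to 0.618, mean 0.455). Of 120 pairs with different numbers, 16 also passed 0.1 (from -0.473 to 0.288, mean -0.152). The ranges overlapped. Each gene was centred within its group first, so the mean of pairs with different numbers largely follows from that of same-number pairs. The pairing therefore rests on the same-number pairs alone. Ungated replicate 3 stood apart from its own gates for several members, so the pairing is less sure in comparisons with ungated cells. Alternatives were the replicate block, DESeq2 1.42.0, RLE scaling, no filter, only the groups compared, other gate codes and leaving out each library. Full values were given to members called between high and low dye, in the trend or by LSD1 inhibition, with or without the block, and to the 2 most abundant of each family. From related lists at most 6 called genes with 5 CPM or more were named, by size of change. Members and lists were chosen with earlier results of these data known. Some members had no promoter window in the RefSeq table and are named only.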

Additional observations from a re-analysis of the deposited data

Results flagged for a closer look

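Within groups of 4 sort libraries, 1 library stood far from the other 3 in 5 of 120 groups (24 members in 5 groups), where the gap to the nearest library divided by the range passed Dixon's critical value for 4 values. Chance gives about 1 in 20 such groups. SEMA6A, the class 6 ligand, was at 4.02 CPM in midhigh dye replicate 3 against 1.65, 1.72 and 1.76 CPM in the others. SEMA3E, the ligand of plexin D1, was at 4.29 CPM in low dye replicate 4 against 2.60, 2.69 and 2.88 CPM, and its log2 fold change of high over low dye was 1.13 without that library and 0.94 with it. SEMA4D stood at 4.06 CPM in midlow dye replicate 1 against 2.66, 2.75 and 2.84 CPM. SEMA3D was at 11.4 CPM in ungated replicate 3 against 7.79, 7.92 and 7.95 CPM. For PLXNA1 ungated replicate 4 had 161 CPM against 168 CPM in each of the other 3, a gap that is small beside the level.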

How the results depend on the processing

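The cause of the changes named here was not tested, save that fewer libraries enter where 1 is left out. With the replicate number as a block, calls were 5433 genes and 13 members (high against low dye; 2589 and 8 without it), 6317 and 17 (trend; 3784 and 9), 1574 and 6 (midhigh against midlow dye; 0 and 0), 1107 and 5 (high dye against ungated; 1 and 0), 1575 and 6 (low dye against ungated; 11 and 0), and 2242 and 11 (LSD1 inhibition; 16 and 0); none of 63 member values tried changed its sign under the block. In the drug set the numbers give 1 free correlation (0.557, and -0.557 across numbers). Only the 2 groups compared gave 1497 genes for high against low dye and 0 for each of high and low dye against ungated. Gates coded as -1, 0, 0 and 1 gave 2218 genes in the trend. Without the filter on low counts, midhigh against midlow dye gave 99 genes and 2 members, high dye against ungated 25 genes, low dye against ungated 177 genes and LSD1 inhibition 0 genes. DESeq2 gave 122 genes and 2 members for midhigh against midlow dye, 19 genes for high dye against ungated, 188 genes and 2 members for low dye against ungated, and 122 genes and 1 member for LSD1 inhibition. RLE scaling kept all 63 member values on their side of the threshold, and where leaving out 1 drug library left an arm with 1 sample, that sample is assumed to vary like the other arm. By longest transcript, the mean over 25 libraries was 404 TPM for NRP1 and 31.1 TPM for NRP2, against 279 and 20.1 TPM by exon union.

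Leaving out 1 library gave 1255 (without high dye replicate 3) to 2965 genes and 4 to 9 members for high against low dye, 2514 to 4149 genes and 7 to 10 members for the trend, 0 to 0 genes and 0 members for midhigh against midlow dye, 0 to 6 genes and 0 members for high dye against ungated, 0 to 36 genes and 0 members for low dye against ungated, and 108 to 331 genes and 1 to 3 members for LSD1 inhibition. Without ungated replicate 3, added after seeing the data, high against low dye gave 2623 genes and 7 members. Some members not called without the block changed sign when 1 library was left out of that fit. For high against low dye these were NRP1 (-0.13 to 0.20), NRP2 (-0.04 to 0.46), PLXNA4 (-0.96 to 0.19), SEMA3F (-0.39 to 0.16), SEMA5A (-0.28 to 0.08) and SEMA7A (-0.21 to 0.02). They are the 6 members with over 80% of their sum of squares between replicate numbers. Without the block, leaving out 1 library makes these numbers uneven between the gates. These sign changes therefore do not separate gate from replicate number, and left-out-library fits with the block were not run. In the trend PLXNA4 changed sign (-0.28 to 0.01), and for LSD1 inhibition NRP1 (0.00 to 0.41) and NRP2 (-0.11 to 0.49) did. Depth limits the scarcest members: at 15015039 to 20030093 counts a library, SEMA3G, SEMA5B and SEMA6D lay near or under 3 counts in most libraries.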
